A study of Mus musculus with 6 samples.

Results

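The BCL2 family decides at the mitochondrion whether a cell lives or dies, and 10 of its genes were followed here from mouse embryonic stem cells (mESCs) to cardiac precursor cell cultures (CPCCs). The members were taken by gene symbol from the bulk gene count tables of both cell types. The pro-survival members were *Bcl2*, *Bcl2l1* (BCL-XL) and *Mcl1*, the pro-death effectors were *Bax* and *Bak1*, and the pro-death BH3-only members were *Bcl2l11* (BIM), *Bbc3* (PUMA), *Pmaip1* (NOXA), *Bid* and *Bad*. All 10 were found among the 16279 genes that the tables listed between them. *Bcl2* was listed for CPCCs only, and the other 9 members were listed for both cell types and passed the filter on low counts.

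Both cell types were male and labelled as the C57BL/6 x CAST/EiJ cross (C57BL/6J mothers in the study's methods), and those methods describe 3 clones, each grown from a single cell of an mESC line made from its own blastocyst. The mESCs were kept without feeder cells on gelatin in 2i medium, which held LIF, serum, the MEK inhibitor PD0325901 and the GSK3 inhibitor CHIR99021. For CPCCs, the same clones were aggregated in hanging drops, cultured as embryoid bodies with ascorbic acid, dissociated, and passaged in a medium with EGF and Fgf2 and without LIF or the inhibitors. CPCCs are a mixed culture, and the change of medium and the change of cell type cannot be told apart in this comparison. Each group had 3 bulk RNA-seq libraries, mESC S01, S02 and S03 and CPCC S04, S05 and S06, and in such libraries fewer cells of a type and less RNA per cell cannot be told apart.

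In this family, pro-survival proteins hold the short BH3 helix of their pro-death relatives in a groove on their surface. Effectors that are not held in check assemble in the mitochondrial outer membrane and open it, cytochrome c escapes, and APAF1 then activates caspases. BH3-only proteins are the sensors of this system and are raised by transcription (PUMA and NOXA downstream of p53, BIM downstream of FOXO factors) or switched by cleavage or phosphorylation (BID and BAD). Pluripotent cells are known for a low threshold to this pathway. The values below are RNA levels and do not measure protein, cleavage or phosphorylation.

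The BH3 helix is the part that members on both sides share, so the coding bases for it are given first for the 9 members whose sequence is shown. Each line is 33 bases of the GENCODE M21 coding sequence, 5′ to 3′, and the capitals mark the codon for the leucine and the codons for the small residue and the aspartate of the pattern leucine, 3 residues of any kind, glycine, alanine or serine, aspartate.
Bcl2: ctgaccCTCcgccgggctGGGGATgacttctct
Bcl2l1: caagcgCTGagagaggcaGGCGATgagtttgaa
Mcl1: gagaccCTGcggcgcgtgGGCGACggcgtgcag
Bax: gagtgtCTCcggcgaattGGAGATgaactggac
Bak1: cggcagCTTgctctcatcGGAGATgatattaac
Bcl2l11: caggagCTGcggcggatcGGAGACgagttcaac
Bbc3: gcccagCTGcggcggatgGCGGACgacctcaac
Bid: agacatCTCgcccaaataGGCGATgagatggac
Bad: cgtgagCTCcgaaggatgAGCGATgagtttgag
On build GRCm38, these stretches lie in coding exons at chr1:106712575-106712607 (minus strand, exon 1) for *Bcl2*, chr2:152829697-152829729 (minus, exon 2) for *Bcl2l1*, chr3:95659430-95659462 (plus, exon 1) for *Mcl1*, chr7:45465997-45466029 (minus, exon 3) for *Bax* and chr17:27022531-27022563 (minus, exon 4) for *Bak1*. Among BH3-only members they lie at chr2:128147144-128147176 (plus, exon 3) for *Bcl2l11*, chr7:16313767-16313799 (plus, exon 3) for *Bbc3*, chr6:120897289-120897321 (minus, exon 4) for *Bid* and chr19:6950786-6950818 (plus, exon 3) for *Bad*.

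The pattern was found exactly 1 time in the coding sequence of each of these 9 members and 2 times in that of *Pmaip1*, whose sequence is not printed. The codon before the aspartate stood for glycine in 7 of the 9 stretches, for alanine in *Bbc3* and for serine in *Bad*. Pairs of stretches shared between 13 and 24 of the 33 bases. The most alike pair was *Bcl2l11* and *Bbc3*, with 24, 2 broad binders of the pro-survival side. Within the pro-survival side, *Bcl2* and *Bcl2l1* shared 17. The BH3 stretches of *Bcl2l1* and *Bad* shared 21, as many as *Bax* and *Bcl2l11* did. A match is a description of letters and no measure of binding.

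Library totals ran from 6442639 to 6907330 counts for mESCs and from 8468819 to 11436062 for CPCCs, so that 3 counts corresponded to between 0.298 and 0.464 CPM, the counts scaled to an equal library size. The 8 pluripotency markers checked summed to 3634 to 3857 CPM in the mESC libraries and 108 to 186 CPM in the CPCC libraries, and all 8 were called lower, with *Nanog* at 7.86, 25.6 and 42.5 CPM in the CPCC ones. Cardiac markers were present at modest levels in CPCCs. Of 10, 9 were listed for CPCCs and summed to 445 CPM in S04, 134 in S05 and 152 in S06, with *Tnnt2* at 103, 24.0 and 28.3 CPM, *Mef2c* at 19.3, 9.95 and 12.8 CPM, *Nkx2-5* at 1.59, 0 and 0.917 CPM and *Tbx5* not listed. Mesenchymal and smooth muscle markers summed to 11770 to 18030 CPM in CPCC libraries against 10.8 to 18.6 in mESCs, with all 8 listed in CPCCs. Neural markers summed to 563 to 583 CPM against 40.6 to 46.4, with all 5 listed. Endoderm markers summed to 40.0 to 57.9 CPM against 4.56 to 8.34 (4 of 6 listed, *Afp* and *Ttr* in neither table). Endothelial and blood markers summed to 10.2 to 34.5 CPM in CPCC libraries (4 of 6 listed, *Tie1* and *Gata1* in neither). In mESCs 1 of the 6 was listed, so the sum there, 86.0 to 94.3 CPM, is that of 1 gene, which was called lower. *Cdh5*, *Kdr* and *Ptprc* were listed for CPCCs only. They were at least 11.5-fold, 7.46-fold and 13.9-fold higher there than 3 counts per library would be in mESCs. The bounds of *Cdh5* and *Ptprc* were much smaller without S04. The part of this mixture in the results below was not tested. S04 stood apart from the other CPCC libraries, with the highest total and the lowest pluripotency marker sum. Values without it are given beside some of the results that it moved.

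Moving from mESCs to CPCCs, the family did not move to one side. Of the 9 members tested with edgeR's quasi-likelihood test, 5 rose (*Bcl2l1*, *Bcl2l11*, *Bbc3*, *Pmaip1* and *Bad*), 2 fell (*Mcl1* and *Bid*), and *Bax* and *Bak1* did not pass the threshold of an adjusted p under 0.05. *Bcl2* came on top of these, at least 132-fold higher in CPCCs than a level of 3 counts per library would be in mESCs. In the whole table, 61.4% of the 12471 genes tested were called, 31.7% higher and 29.7% lower in CPCCs, so a call was the common outcome for any gene. With a change of at least 2-fold asked for as well, 4 members were higher and 1 was lower, beside 44.9% of all genes in either direction. Over the 9 members the log2 fold change of CPCCs relative to mESCs had a median of 0.84, 0.95 when *Bcl2* was added at its bound, and 0.03 over all genes tested.

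The groups of libraries did not overlap for 7 of the 9 members, those called by edgeR, beside 69.7% of all genes tested. For each of these 7 the two-sided exact permutation test over libraries gave p = 0.10, which is the smallest that 3 libraries against 3 allow.

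**Figure D1:**
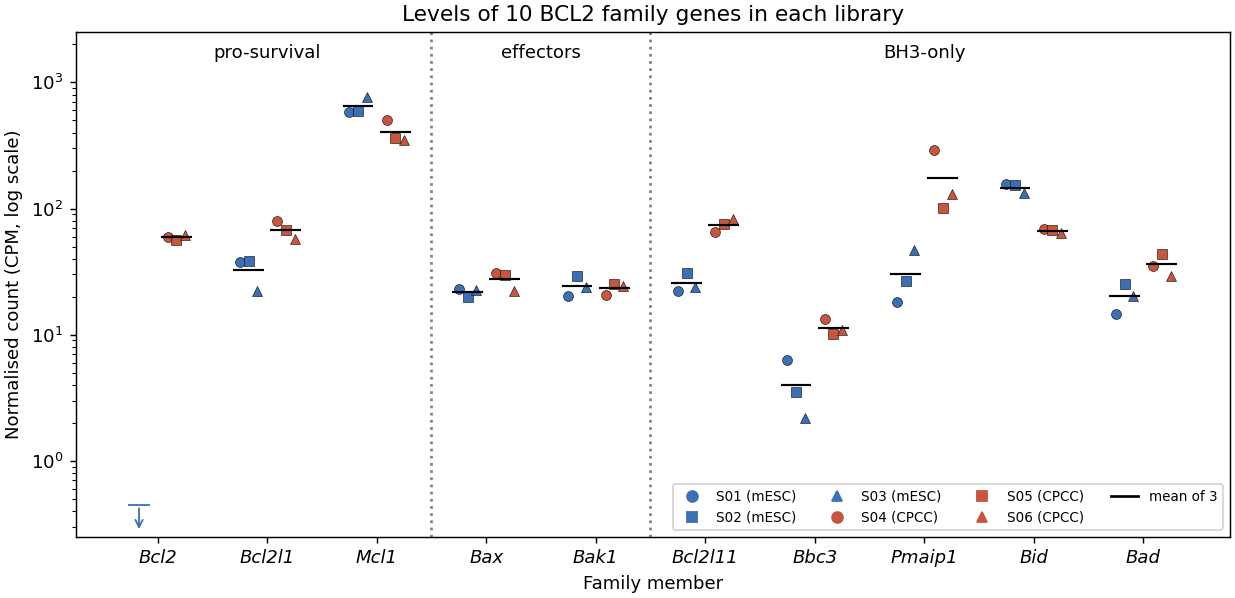
Level of each of the 10 members in CPM on a log axis, with 1 point per library and a bar at the mean of each group. The mESC and CPCC points overlap for Bax and Bak1 and are separate for the other 7 members listed in both tables, while Bcl2 has CPCC points (56.3 to 62.1 CPM) and, for mESCs, an arrow down from the level of 3 counts.

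The pro-survival members went in different directions. *Bcl2* (chr1:106538176-106714291, minus strand) encodes the founding member, which holds BIM and the effectors in check at the mitochondrion and the endoplasmic reticulum. Its level was 59.5 CPM in S04, 56.3 in S05 and 62.1 in S06, from 598, 464 and 542 counts, with a mean of 59.3 ± 2.93 CPM (SD, n = 3). This was the tightest set of CPCC values among pro-survival members. The mESC table did not list the gene, and its rows all hold at least 10 counts over the 3 libraries, so no fold change was fitted. When the missing mESC entries were filled with 0 counts the fitted log2 fold change was 11.87 (adjusted p = 6.54e-06), and with 3 counts per library it was 6.93 (adjusted p = 2.08e-06), so the size depends on the filling and only the bound is read. An antisense gene, *D630008O14Rik*, shares 558 exon bases (6.09%) with *Bcl2* and was in neither table.

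*Bcl2l1* (chr2:152758732-152831729, minus strand) encodes BCL-XL, which guards differentiated cells such as neurons and platelets. It stood at 37.6, 38.1 and 22.4 CPM in the mESC libraries and at 79.6, 67.1 and 57.0 CPM in the CPCC ones. Every CPCC library was above every mESC library, and S03 was the low one among mESCs. The rise was 2.08-fold, a log2 fold change of 1.05 with a standard error (SE) of 0.25 (adjusted p = 0.00512).

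*Mcl1* (chr3:95658721-95663179, plus strand) encodes a short-lived pro-survival protein that binds BIM, NOXA and BAK strongly and that early embryos need. Its levels were 587, 594 and 772 CPM in the mESC libraries and 505, 362 and 348 CPM in the CPCC ones. The groups were separate, but the gap between the lowest mESC library and S04 was small next to the distance from S03 to the others. *Mcl1* fell by 0.69 on the log2 scale (SE 0.20, adjusted p = 0.0136), which made it 1.61-fold lower. This call was lost without S03 (adjusted p = 0.0586) and without S05 (adjusted p = 0.0591), at log2 fold changes of -0.54 and -0.61.

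Levels can be set against each other only per length, and for this CPM was divided by the kilobases of exon that GENCODE M21 gives each gene. The gene models that the authors counted on differ from these, so the scale is approximate. The difference is large for *Bcl2l1*, which starts at 152758732 in the authors' positions and at 152780668 in GENCODE M21. On this scale the level of *Mcl1* was 190.4 ± 30.8 CPM per kb in mESCs and 118 ± 25.4 in CPCCs (SD, n = 3), the highest of all members in both. *Bcl2l1* had 7.13 ± 1.95 CPM per kb in mESCs and 14.8 ± 2.47 in CPCCs, and *Bcl2* had 6.48 ± 0.32 in CPCCs. *Mcl1* therefore made up between 95.4% and 97.9% of the summed pro-survival level per kb in the mESC libraries and between 83.6% and 86.1% in the CPCC libraries. The share of *Bcl2l1* went from a range of 2.11% to 4.57% to one of 10.1% to 11.6%, and *Bcl2* held 3.79% to 5.61% in CPCCs.

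*Bax* and *Bak1* showed the smallest log2 fold changes of the 9 members tested. *Bax* (chr7:45461695-45466899, minus strand) encodes the effector that waits in the cytosol and inserts into the outer membrane. It was at 23.2, 19.8 and 22.5 CPM in the mESC libraries and at 30.7, 30.0 and 22.4 CPM in the CPCC ones. The groups overlapped, because S06 lay among the mESC libraries. The log2 fold change was 0.34 (SE 0.22, adjusted p = 0.207).

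*Bak1* (chr17:27019812-27028628, minus strand) encodes BAK, which sits in the mitochondrial membrane in advance. Its CPM values were 20.1, 29.0 and 23.9 in mESCs and 20.6, 25.1 and 24.4 in CPCCs, with S01 and S04 the low libraries of their groups. The CPCC values lay entirely inside the range of the mESC values. The log2 fold change was -0.06 (SE 0.23, adjusted p = 0.839), and its sign turned when S02 was left out (0.09), when S04 was left out (0.04) and when every library had to hold 10 counts (0.03). Neither effector was called by edgeR or by DESeq2, and neither had an unadjusted p under 0.05. On the per length scale, the level of *Bax* was 13.9 ± 1.13 CPM per kb in mESCs and 17.6 ± 2.94 in CPCCs, and that of *Bak1* was 10.1 ± 1.86 and 9.71 ± 1.01 (SD, n = 3). *Bak1* shares 614 exon bases (25.5%) with *Ggnbp1*, which fell (log2 fold change -2.47, adjusted p = 0.00475) from a mean of 5.36 to 0.952 CPM, and *Bax* shares 192 (12.2%) with *Gm45808*, which neither table lists.

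**Figure D2:**
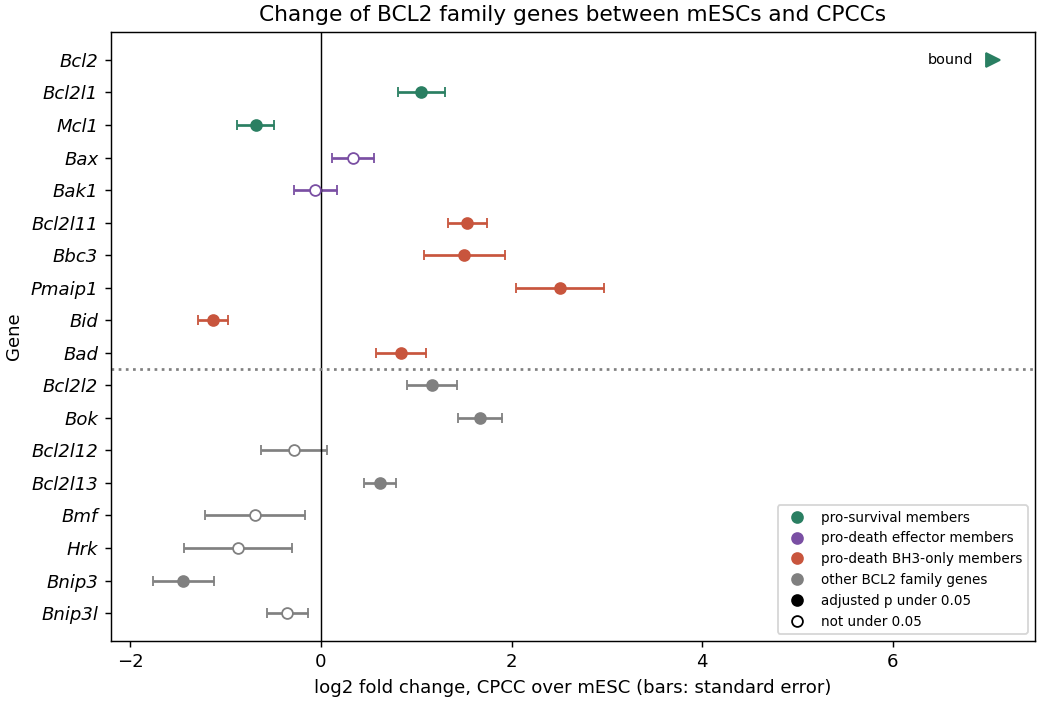
Log2 fold change of CPCCs over mESCs for each member by role and, under the dotted line, for the other family genes tested, with bars of 1 standard error from edgeR, open symbols where the adjusted p was not under 0.05, and a triangle at the bound of Bcl2. Pmaip1 (2.51), Bcl2l11 (1.54) and Bbc3 (1.50) lie farthest to the right among fitted members, Bid (-1.13) and Mcl1 (-0.69) lie to the left, and Bax (0.34) and Bak1 (-0.06) are the members nearest to 0.

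All 5 BH3-only members passed the threshold, and 4 of them rose. *Pmaip1* (chromosome 18, 66458604 to 66465559, plus strand) encodes NOXA, a p53 target whose protein binds MCL1 and helps to send it for degradation. It was at 18.1, 26.5 and 46.8 CPM in the mESC libraries and at 289.9, 101.4 and 129.8 CPM in the CPCC ones. All CPCC libraries were higher, and S04 stood at more than any other library by far. The log2 fold change of 2.51 (SE 0.46, adjusted p = 0.00135) corresponded to 5.70-fold and was the largest fitted one in the family. Without S04 it was 1.94 (adjusted p = 0.000139). S04 was also the library with the highest cardiac marker sum, and the part of this in the *Pmaip1* level was not tested.

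*Bcl2l11* (chr2:128126038-128162548, plus strand) encodes BIM, which binds every pro-survival relative and also activates BAX. Its levels of 22.1, 30.9 and 23.7 CPM in the mESC libraries and 64.9, 74.9 and 82.9 CPM in the CPCC ones left a wide gap between the groups. Here S04 was the lowest CPCC library and not the highest. The rise was 2.90-fold (log2 fold change 1.54, SE 0.20, adjusted p = 0.00022), and it stayed between 1.44 and 1.70 on the log2 scale when each library was left out in turn.

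*Bbc3* (chr7:16309583-16318335, plus strand) encodes PUMA, which like BIM binds all pro-survival members and is a p53 target. This was the member with the fewest counts, 41, 24 and 15 in mESCs and 133, 83 and 95 in CPCCs. In CPM these were 6.34, 3.53 and 2.20 against 13.2, 10.1 and 10.9, without overlap. The log2 fold change was 1.50 with the wide SE of 0.43 (adjusted p = 0.0132), a 2.84-fold rise that was called with any single library left out (largest adjusted p = 0.0479).

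*Bad* (chr19:6941861-6951906, plus strand) encodes a sensor of growth factor signals that is held by 14-3-3 proteins when phosphorylated and that frees effectors from BCL2 and BCL-XL. The CPM values were 14.7, 25.3 and 20.3 in mESCs and 35.1, 43.8 and 29.4 in CPCCs, again without overlap. The rise of 1.79-fold (log2 fold change 0.84, SE 0.26, adjusted p = 0.0209) was the weakest call among BH3-only members and was lost without S01 (adjusted p = 0.0812), S03 (adjusted p = 0.0555) or S05 (adjusted p = 0.0852). *Bad* shares 524 exon bases, 20.5% of its own, with *Gpr137* on the other strand, and *Gpr137* rose too (log2 fold change 1.97, adjusted p = 0.00024). The SMART-Seq v4 kit does not keep strand, so reads from the shared bases cannot be assigned to either gene.

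*Bid* (chr6:120893119-120916821, minus strand) encodes the link from death receptors, since caspase-8 cleaves the protein and the cut form moves to mitochondria. It was at 155, 153 and 132 CPM in the mESC libraries and 68.4, 67.9 and 64.2 CPM in the CPCC ones. Values within each group were close together and the groups were far apart. *Bid* fell by 1.13 on the log2 scale (SE 0.16, adjusted p = 0.000277), to a level 2.20-fold lower, and was the only BH3-only member to fall. It overlaps *Bcl2l13* over 628 exon bases (17.7%), and that gene moved the other way, with a log2 fold change of 0.62.

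Because these members moved in opposite directions, the makeup of each side changed. In mESCs the pro-death level per kb was led by *Bid* with 41.4 ± 3.64 CPM per kb, between 41.1% and 51.5% of the pro-death sum, while *Pmaip1* had 11.2 ± 5.41 and between 7.80% and 18.9%. In CPCCs the order was turned round. *Pmaip1* had 63.6 ± 37.2 CPM per kb and 31.8% to 58.5% of the sum, and *Bid* had 18.8 ± 0.65 and 10.6% to 16.4%. The lowest *Pmaip1* value in CPCCs, 37.1 CPM per kb in S05, lay above all values of *Bid* there.

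By mean level per kb in mESCs, the members below *Mcl1* and *Bid* ran *Bax*, *Pmaip1*, *Bak1*, *Bad* (7.86 ± 2.08), *Bcl2l1*, *Bcl2l11* (3.18 ± 0.58) and *Bbc3* (1.89 ± 1.00). In CPCCs they ran *Mcl1*, *Pmaip1*, *Bid*, *Bax*, *Bcl2l1*, *Bad* (14.1 ± 2.84), *Bak1*, *Bcl2l11* (9.25 ± 1.12), *Bcl2* and *Bbc3* (5.37 ± 0.77). Several neighbours in these orders lay within each other's spread, as *Bax*, *Pmaip1* and *Bak1* did in mESCs and *Bid* and *Bax*, *Bcl2l1* and *Bad*, and *Bak1* and *Bcl2l11* did in CPCCs. In CPCCs even *Mcl1* and *Pmaip1* overlapped, since *Pmaip1* reached 106.1 CPM per kb in S04.

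**Figure D3:**
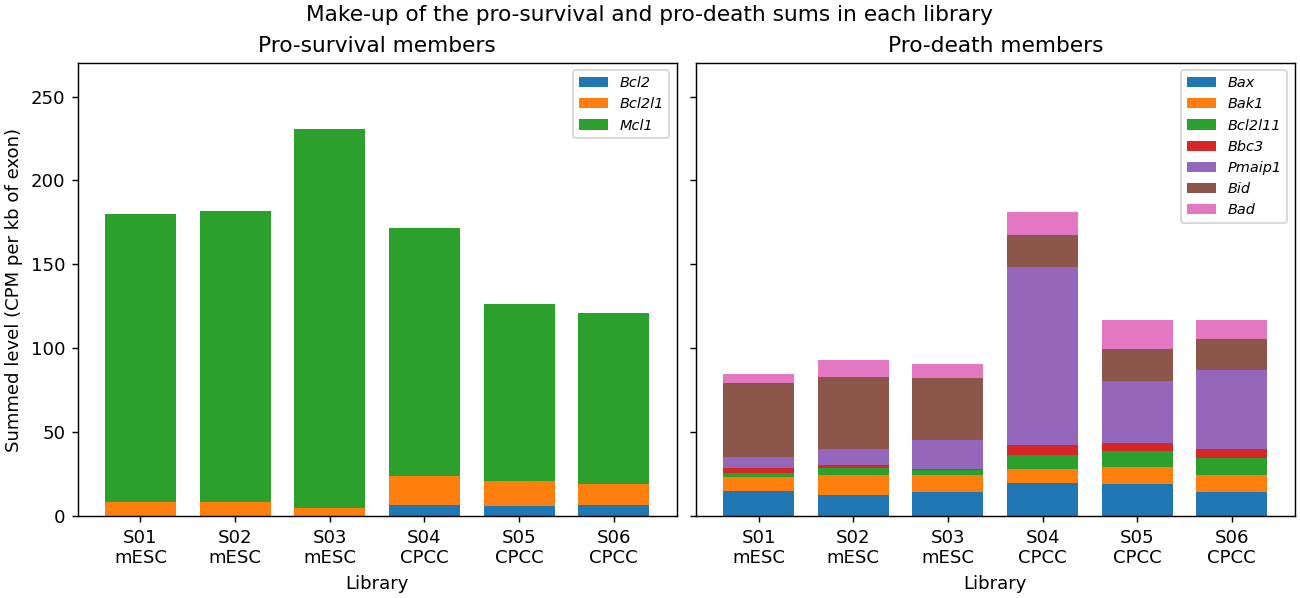
Summed level in CPM per kb of exon of the pro-survival members (left panel) and the pro-death members (right panel), stacked by member, for each of the 6 libraries. Mcl1 is 95.4% or more of the pro-survival bar in mESCs and 83.6% to 86.1% of it in CPCCs, and the largest pro-death segment is Bid in mESCs and Pmaip1 in CPCCs.

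Summed levels of the 3 pro-survival members were set over those of the 7 pro-death members in each library as a description, with no test. *Bcl2*, not listed for mESCs, was entered there at 0, as in the shares above. The ratio of summed CPM was 2.40, 2.19 and 2.93 in mESCs and 1.23, 1.37 and 1.28 in CPCCs. Per kb it was 2.12, 1.96 and 2.55 in mESCs (mean 2.21 ± 0.31, SD, n = 3) and 0.945, 1.08 and 1.04 in CPCCs (mean 1.02 ± 0.070). The sums behind it moved in both parts of the ratio. Pro-survival levels per kb summed to between 180 and 231 CPM per kb in mESCs and between 121 and 171 in CPCCs, and pro-death levels to between 84.9 and 92.9 and between 116.9 and 181.

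The ratio rested on a few members. Without *Pmaip1* it was 2.54 ± 0.53 per kb in mESCs and 1.87 ± 0.36 in CPCCs, and the libraries overlapped, with S04 at 2.28. Without *Mcl1* and *Bid*, the members with the highest mESC levels of each side, the order turned for summed CPM. The ratio was then 0.267 ± 0.10 in mESCs and 0.379 ± 0.065 in CPCCs, and the libraries overlapped, with S01 (0.359) above S04 (0.306). This setting was not computed per kb, so its values are not on the scale of those without *Pmaip1*.

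Promoter sequence was read from RefSeq windows of 300 bases on GRCm38.p6, which run from 250 bases before a start site to 50 after it. The table held 15 such windows for 9 members, *Pmaip1* having no entry, and 32544 windows in all. The GC box GGGCGG, an SP1-type motif, was found on either strand in 10 of the 15 windows, from 7 members, and in 35.9% of all windows. Member windows were also richer in G and C, with a median of 65.7% against 53% over all windows. Of the windows of *Bbc3*, a pair overlaps and holds partly the same bases.

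The *Bcl2* window is shown since this gene was listed for CPCCs only. It covers chr1:106714241-106714540 on the minus strand, and the capitals mark its 7 GC boxes, found as GGGCGG or its reverse complement which begin between positions -213 and -9 from the start.
Bcl2: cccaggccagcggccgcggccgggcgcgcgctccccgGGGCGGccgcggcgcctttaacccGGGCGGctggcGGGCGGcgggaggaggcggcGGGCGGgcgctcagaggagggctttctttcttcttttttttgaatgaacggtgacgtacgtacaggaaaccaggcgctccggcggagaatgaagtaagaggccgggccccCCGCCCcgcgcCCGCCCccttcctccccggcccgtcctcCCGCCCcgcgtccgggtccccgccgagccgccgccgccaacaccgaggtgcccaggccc
Of the motifs searched, the window held no match that overlaps these boxes.

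The *Bcl2l11* window is shown because FOXO factors are known regulators of this gene and *Foxo1* RNA rose as well (values below). Whether FOXO factors had a part in the *Bcl2l11* rise was not tested. It covers chr2:128125788-128126087 on the plus strand, and the capitals mark the match to the FOXO motif TGTTTAC, here on the other strand, which begins at position -227 from the start.
Bcl2l11: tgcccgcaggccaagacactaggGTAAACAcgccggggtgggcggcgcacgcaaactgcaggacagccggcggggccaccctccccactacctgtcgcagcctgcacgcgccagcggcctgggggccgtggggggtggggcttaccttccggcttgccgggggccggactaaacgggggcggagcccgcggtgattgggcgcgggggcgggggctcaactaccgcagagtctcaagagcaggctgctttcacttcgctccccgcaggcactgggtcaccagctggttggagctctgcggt
This motif was in 2 of the 15 member windows, the other one belonging to *Bbc3*, and in 3.66% of all windows. The match overlapped no other motif searched.

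A decamer of the p53 response element was found on either strand in 1 of the 15 windows, that of *Bax*, and in 8.36% of all windows. A pair of decamers with a spacer of 0 to 13 bases, the full p53 element, was in none of the 15 and in 0.0737% of all windows. The E-box CACGTG was in 2 of the member windows and in 7.17% of all. The cyclic AMP element TGACGTCA and the TATA box TATAAA, the latter read on the gene's strand, were in none, against 1.80% and 8.28%. A window of this length holds only the letters next to the start site, and sites further away were not searched.

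Outside the 10 members, 15 more genes of the family were followed. Of these, 8 could be tested, 3 rose, 1 fell and 4 did not pass, with a median log2 fold change of -0.32. In the whole set of genes tested, 31.7% rose and 29.7% fell. *Bok*, a BAX-like effector that is kept low by protein turnover, was at 25.5, 22.8 and 36.1 CPM in the mESC libraries and 72.4, 99.2 and 97.1 CPM in the CPCC ones. It rose 3.18-fold (log2 fold change 1.67, SE 0.23, adjusted p = 0.000284), unlike *Bax* and *Bak1*, although this difference between effectors was not tested. *Bcl2l2*, which encodes the pro-survival protein BCL-W, had 13.9, 15.2 and 19.0 CPM against 46.7, 33.5 and 27.7 and rose 2.24-fold (log2 fold change 1.17, SE 0.26, adjusted p = 0.00411). *Bcl2l13*, a mitochondrial relative, rose by 0.62 on the log2 scale (SE 0.17, adjusted p = 0.0102).

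The gene that fell was *Bnip3*, a mitophagy receptor induced by hypoxia, with 81.5, 70.6 and 161.8 CPM in the mESC libraries and 34.5, 33.7 and 47.1 CPM in the CPCC ones. Its log2 fold change was -1.44 (SE 0.32, adjusted p = 0.0038). The related mitophagy receptor gene *Bnip3l* had a log2 fold change of -0.35 (adjusted p = 0.18) and passed the threshold without S04, at -0.59 (adjusted p = 0.00482). The BH3-only genes *Hrk* (-0.87, adjusted p = 0.207) and *Bmf* (-0.69, adjusted p = 0.277) and the relative *Bcl2l12* (-0.28, adjusted p = 0.502) did not pass, at mean levels of 6.88 CPM or less in mESCs.

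Some relatives were in 1 table only. *Bcl2l14* was listed for mESCs only, at 19.2, 18.8 and 17.3 CPM, and was at least 54.9-fold lower in CPCCs against 3 counts per library. *Bcl2l15*, also in the mESC table only, had a bound of at least 4.37-fold, which was 2.41-fold without S01. *Bik*, in the same table, had 3, 11 and 0 counts, and its level was above the floor only with S02 included (ratio to 3 counts per library 2.07, and 0.691 without S02). *Bcl2a1a*, *Bcl2a1b* and *Bcl2a1d*, which encode copies of the pro-survival protein A1, were in the CPCC table only, with few counts. The bound was at least 1.85-fold for *Bcl2a1a* and at least 4.43-fold for *Bcl2a1b* (1.98-fold without S04). *Bcl2a1d* had 21, 1 and 0 counts and a ratio to the floor of 1.64, which was 0.135 without S04 and 2.47 without S06, so no bound is read for it. These copies are nearly identical, so the split of reads between them is uncertain, and *Bcl2l10* was in neither table.

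Around the family, the apoptosome and caspase genes, not all of which act downstream of the mitochondrion, split. Of 14 apoptosome and caspase genes, 13 were tested, 4 rose and 5 fell, beside 31.7% higher and 29.7% lower over all genes tested. The median log2 fold change was 0.38 (0.53 with the bound of the gene in 1 table). *Apaf1*, the scaffold of the apoptosome, was at 24.0, 29.1 and 31.2 CPM in the mESC libraries and 196, 97.7 and 89.2 CPM in the CPCC ones (log2 fold change 2.18, SE 0.31, adjusted p = 0.000347). *Casp8*, the protease that cleaves BID, had only 4, 4 and 23 counts in mESCs against 434, 157 and 162 in CPCCs. Its log2 fold change was 4.12 (SE 0.66, adjusted p = 0.000617), and 5.45 without S03, the mESC library with 23 counts.

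*Casp2*, an initiator caspase, rose by 0.78 on the log2 scale (SE 0.27, adjusted p = 0.0314), and this call was lost without any 1 of S01, S02, S03, S05 or S06 (adjusted p between 0.0595 and 0.137). *Casp12*, a caspase of the endoplasmic reticulum in mice, was in the CPCC table only and at least 38.0-fold higher. The falls with the greatest size were those of *Parp1*, a DNA repair enzyme that caspases cut (-2.39, SE 0.23, adjusted p = 4.02e-05), *Endog*, a mitochondrial nuclease (-2.34, SE 0.30, adjusted p = 0.00017), and *Aifm1*, a mitochondrial oxidoreductase that can leave in cell death (-1.67, SE 0.18, adjusted p = 6.49e-05).

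In the list of inhibitor of apoptosis proteins and their antagonists, 4 of 8 genes fell and 0 rose in edgeR. Among all genes tested 29.7% fell and 31.7% rose. The list had a median log2 fold change of -0.64, and its count of 0 was the same at an unadjusted p under 0.05 and in DESeq2. *Birc5* (survivin), a gene of dividing cells, was at 578, 613 and 530.2 CPM in the mESC libraries and 71.0, 190 and 231 CPM in the CPCC ones (log2 fold change -1.81, SE 0.36, adjusted p = 0.0023). *Xaf1*, an antagonist of XIAP, had a log2 fold change of -1.72 (SE 0.28, adjusted p = 0.000669). *Htra2*, a mitochondrial protease released with cytochrome c, had one of -1.02 (SE 0.30, adjusted p = 0.0161), a call that was lost without S02 (adjusted p = 0.0770) and without S05 (adjusted p = 0.0558). *Birc3* was called higher only when S03 was left out (log2 fold change 1.70, adjusted p = 0.0449), and it is named here after its values were seen.

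The death receptor list, which feeds into *Bid* through caspase-8, leaned the other way. Of 10 genes, 8 were tested, 5 rose and 0 fell in edgeR, beside 31.7% higher and 29.7% lower over all genes tested. In this list 0 fell also at an unadjusted p under 0.05 and in DESeq2, and the median log2 fold change was 1.50 (1.03 with the bound added). All 5 that rose had their highest CPCC value in S04, as did 56.0% of all genes called higher. *Fas*, a death receptor and p53 target, had 3, 7 and 0 counts in mESCs and 1309, 394 and 244 in CPCCs. Its log2 fold change was 7.06 (SE 0.84, adjusted p = 0.000121), 6.22 without S04 and 8.16 without S02, so that its size is only roughly known. *Cflar*, the inhibitor of caspase-8 at these receptors, rose as well (3.89, SE 0.36, adjusted p = 2.98e-05), and so did *Tnfrsf1a*, a TNF receptor (3.83, SE 0.33, adjusted p = 2.05e-05). *Fasl*, the ligand of FAS, was in the CPCC table only at 1.59, 0 and 1.15 CPM, a bound of at least 2.04-fold (1.28-fold without S04), and *Tnfsf10* was in neither table.

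**Figure D4:**
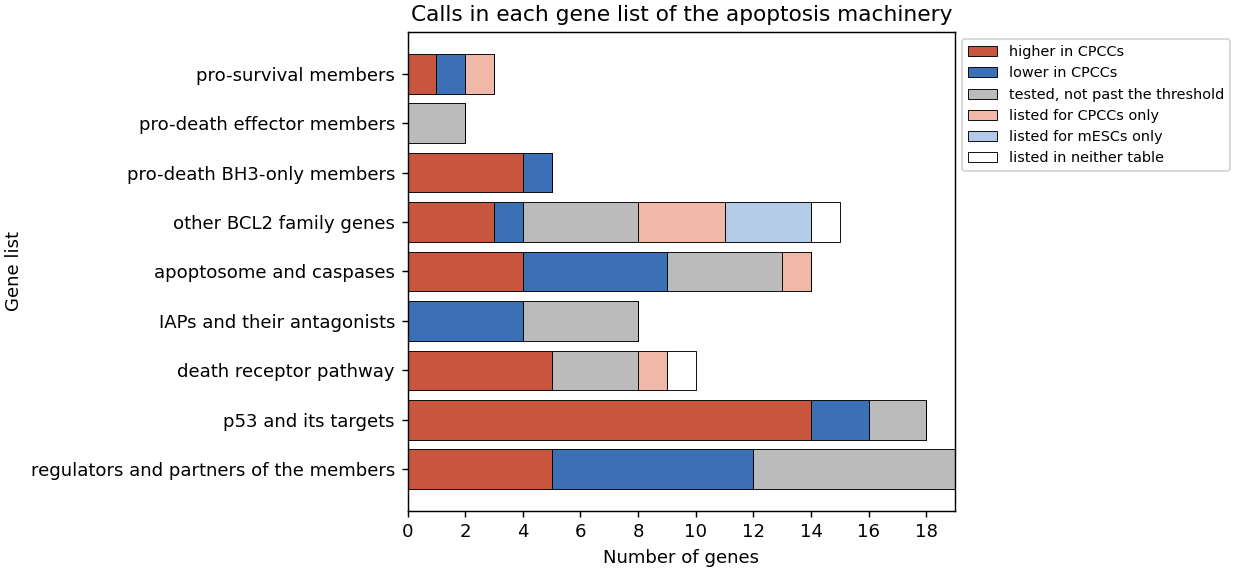
Number of genes called higher in CPCCs, called lower, tested but not called, listed for 1 cell type only or listed in neither table, for the members by role and for each list of genes around them. Higher calls lead in the p53 list (14 of 18 tested) and the death receptor list (5 of 8), and lower calls lead among the inhibitor of apoptosis proteins (IAPs) and their antagonists (4 of 8). Of all genes tested, 31.7% were called higher and 29.7% lower.

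As *Bbc3*, *Pmaip1* and *Bax* are known p53 targets, the p53 list was set beside them. All 18 genes of this list, which holds none of the 10 members, were tested. Of these, 14 rose and 2 fell, with a median log2 fold change of 2.05 and 16 genes without overlap between groups. Over all genes tested, 31.7% rose, 29.7% fell and 69.7% had no overlap. The list was chosen with earlier results of these data known, and the part of p53 in the changes of the members was not tested. *Trp53* itself fell, from 332, 340 and 232 CPM in mESCs to 105, 120 and 131 CPM in CPCC libraries (log2 fold change -1.34, SE 0.19, adjusted p = 0.000352). The other gene that fell was *Mdm4*, an inhibitor of p53 (-0.92, SE 0.19, adjusted p = 0.00275). Messenger RNA of *Trp53* does not measure the activity of the protein.

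The highest rises in the list were those of *Plk2*, a stress-responsive kinase, *Perp*, a desmosomal membrane protein, and *Eda2r*, a TNF receptor relative. *Plk2* had 6.96, 4.27 and 5.85 CPM in the mESC libraries and 295, 186 and 127 CPM in the CPCC ones (log2 fold change 5.15, SE 0.37, adjusted p = 7.49e-06). *Perp* had a log2 fold change of 5.06 (SE 0.54, adjusted p = 6.54e-05), and 4.32 without S04. *Eda2r* had one of 3.38 (SE 0.36, adjusted p = 6.54e-05).

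S04 held the highest CPCC value in 13 of the 14 genes of the p53 list that rose. Over all 3955 genes called higher in CPCCs this was so in 56.0%. For the members set beside the list, *Pmaip1*, *Bbc3* and *Bax*, S04 was also the highest CPCC library, and *Bax* was not called. Without S04, 14 genes of the list were called higher and 2 lower, the same counts.

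**Figure D5:**
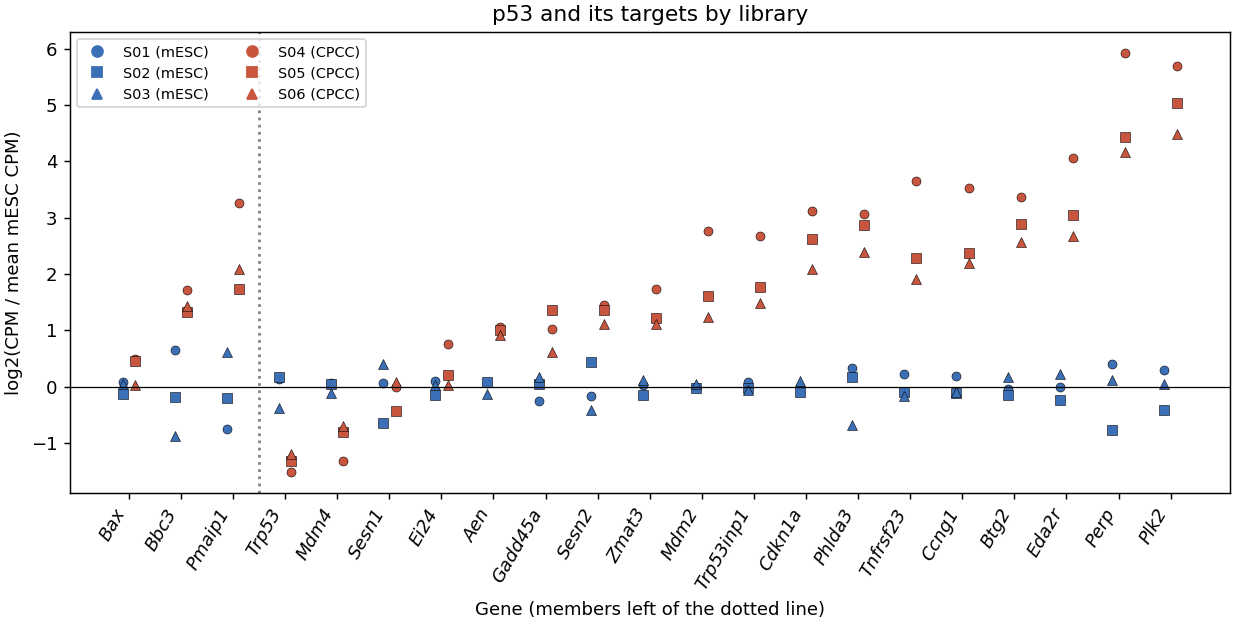
Log2 of CPM over the mean CPM of mESCs for the members Bax, Bbc3 and Pmaip1 (left of the dotted line) and the 18 genes of the p53 list, with 1 point per library. The CPCC points lie above the mESC points for the 14 genes of the list that rose, S04 is the uppermost CPCC point in 13 of them, and Trp53 and Mdm4 lie lower in CPCCs.

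Regulators and partners of the members showed no common direction. All 19 genes were tested, 5 rose, 7 fell and 7 did not pass, beside 31.7% higher and 29.7% lower over all genes tested. The median log2 fold change was -0.08. *Foxo1*, a factor that drives *Bcl2l11* transcription, was at 65.4, 65.6 and 69.4 CPM in the mESC libraries and 143, 180.2 and 176 CPM in the CPCC ones (log2 fold change 1.32, SE 0.16, adjusted p = 0.000158). *Ddit3*, the stress factor CHOP (1.39, SE 0.24, adjusted p = 0.0011), and *Ywhaz*, a 14-3-3 protein gene (0.82, SE 0.14, adjusted p = 0.000986), rose as well. Falls were led by *Pim1*, which encodes a kinase that phosphorylates BAD (-1.41, SE 0.21, adjusted p = 0.000375), *Vdac1*, a channel of the mitochondrial outer membrane (-1.08, SE 0.15, adjusted p = 0.000252), and *Pim3*, a relative of *Pim1* (-0.92, SE 0.22, adjusted p = 0.00639).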

How the data were processed

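The authors deposited 1 gene table per cell type, with estimated counts (17.8% to 21.4% of values not whole) for 13761 genes in mESCs and 15519 in CPCCs, each gene with at least 10 counts over its 3 libraries. The submitters' processing notes name STAR 2.7 and mm10. The counter and its strand setting are not given in the sources used here, and libraries were made with the SMART-Seq v4 kit, which does not keep strand. No column of the authors' own comparisons was used, and none was found.

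Counts were rounded to whole numbers. The 13001 genes in both tables were filtered with filterByExpr, which left 12471, normalised with TMM and tested with edgeR 4.0.16 in R 4.3.3 (quasi-likelihood test, Benjamini-Hochberg adjustment over all genes tested, threshold 0.05). DESeq2 1.42.0, the tool the study's methods name for this comparison, was an alternative. Genes in 1 table got a bound against 3 counts per library and no test. Each table gave the cell type and its columns gave no replicate number, so libraries are named S01 to S06 after the columns. On data simulated from these 13001 genes, 118 of 200 changed genes were recovered, 98 of the 100 changed 4-fold or more, and 7 unchanged genes were called. Floors cover counting error only. Library totals of 6442639 to 11436062 counts limit the precision for genes with few counts.

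Named genes were all members and other family genes, and of each further list the up to 3 largest rises and falls past the threshold and up to 2 genes in 1 table with the largest bound. Members and lists were chosen with earlier results of these data known. Figures were drawn with matplotlib 3.10.9. BH3 stretches came from GENCODE M21 transcripts and promoters from RefSeq.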

Additional observations from a re-analysis of the deposited data

How the results depend on the processing

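Alternatives were DESeq2, upper-quartile normalisation, library totals without TMM, no filter or 10 counts in every library, and library sizes over whole tables. Others were genes missing from a table entered at 0 or 3 counts, a 2-fold minimum, and each library left out in turn. Of 126 fits of a member (9 members, 14 alternatives), 118 kept direction and side of the threshold, 5 lost the call and 3 changed sign. Calls over the whole table went from 7656 to between 5604 (2-fold minimum) and 9011 (3 counts), and to between 6536 and 7895 with a library left out. Members called lower went from 2 to 1 with the 2-fold minimum and to between 1 and 2 with a library left out. With libraries left out, the log2 fold change ran from -0.86 to -0.54 for *Mcl1*, from 0.66 to 1.05 for *Bad* and from -0.18 to 0.093 for *Bak1*, which was also positive (0.028) with 10 counts in every library. Other family genes called lower were 2 with missing genes at 0 or 3 counts and between 1 and 2 with a library left out. In the same way, apoptosome and caspase calls ran from 2 to 4 higher and 3 to 5 lower, and higher calls among inhibitors of apoptosis from 0 to 1. The summed ratio went to 1.02 per kb in CPCCs (mean of summed CPM 1.30), to 0.267 in mESCs and 0.379 in CPCCs without *Mcl1* and *Bid*, the highest of each side in mESCs, and to 1.87 in CPCCs without *Pmaip1* per kb, a setting chosen after the values were seen. The cause of these moves was not tested. No paired analysis was possible because the columns carry no replicate numbers, although the CPCCs were made from the same clones. With 3 libraries a group, a difference that missed the threshold, as for *Bax* and *Bak1*, does not show equal levels. Depth limits genes with few counts, such as *Bbc3*, *Hrk* and *Bmf*, and those near 3 counts.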
